A study of Homo sapiens with 12 samples.

Results

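The comparison described here is the difference between 2 responses to Sorafenib in HLE cells, the response after ATF4 depletion minus the response of control cells. For each gene it was computed as (siATF4 Sorafenib minus siATF4 DMSO) minus (siCtr Sorafenib minus siCtr DMSO) on log2(CPM + 0.5), where CPM counts the reads of a gene for every 1000000 reads that fell on any gene. A negative value means that the drug raised a gene less, or lowered it more, when ATF4 was depleted, and a positive value means the opposite. Its members are 8 of the 12 libraries of the series and the 13515 of 26258 listed genes that reached 1 CPM in at least 2 of the 12 libraries.

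HLE is an established human hepatocellular carcinoma line. The cells were transfected with a control siRNA (siCtr), with siRNA against ATF4 (siATF4) or with siRNAs against YAP and TAZ (siY_T), and then received DMSO alone, the solvent, or 5 µM Sorafenib, the labels giving no time. Each of the 6 groups holds 2 libraries. The 4 siY_T libraries share the estimate of the spread and serve as another response to the drug, one that uses no siCtr or siATF4 library. All values come from 1 cell line with transient depletion, so they describe cells with less ATF4 and not cells without it.

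Sorafenib inhibits RAF and several receptor tyrosine kinases. ATF4 is the transcription factor at the centre of the integrated stress response (ISR). In this pathway kinases that sense unfolded proteins, missing amino acids, heme deficiency or double-stranded RNA phosphorylate the initiation factor eIF2alpha, most translation slows down, and the ATF4 mRNA is translated more. ATF4 then binds composite C/EBP-ATF elements with partners of the C/EBP family and raises genes for amino acid import and synthesis, tRNA charging, redox balance and feedback on the pathway. In liver cancer cells the pathway is known for its link to cystine uptake and ferroptosis, an iron-dependent death by lipid peroxidation.

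The targeted gene was measured first. *ATF4* (Entrez Gene 468, GRCh37 chromosome 22 from 39915700 to 39918688) stood at 248 and 249 CPM in the 2 siCtr DMSO libraries and at 484 and 492 CPM with Sorafenib. In siATF4 cells it stood at 96.2 and 101 CPM in DMSO and at 84.5 and 90.6 CPM with Sorafenib. The 4 siATF4 libraries all lay below the 4 siCtr libraries, and the drug raised the mRNA in siCtr cells (log2 change 0.97) and not in siATF4 cells (-0.17). The difference of the responses was -1.14 (standard error 0.063, n = 2 libraries a group, limma with Benjamini-Hochberg adjusted p = 2.84e-07). The depletion itself was larger under the drug, at -2.47 against -1.33 in DMSO, and a part of the *ATF4* mRNA remained in both.

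The libraries held 41408348 to 53619732 reads on genes. The 2 libraries of each of the 4 groups compared differed by more than counting noise, with a chi-square per gene between 2.98 and 5.77, and were kept as separate samples. The study's methods call the RNA extractions biological replicates, in another number than the labels hold, and nothing in the labels says that the libraries came from separate cultures. The p-values measure the spread between these libraries, which may be technical. Of 13 hepatocyte markers 11 averaged under 0.1 CPM, and albumin was at 0 in all 8 libraries. *FGB* (fibrinogen beta chain) was the one above 1 CPM on average. Its group means were 399 and 175 CPM in siCtr and 70.4 and 64.9 CPM in siATF4 cells without and with the drug. Of 6 epithelial markers *KRT8* and *KRT18* were high, *KRT7* had group means of 6.28 to 8.97 CPM, and *EPCAM* and *KRT19* stayed under 1 CPM. The epithelial gene *CDH1* (E-cadherin) averaged 0.803 and 6.19 CPM in siCtr and 0.0519 and 0.265 CPM in siATF4 cells without and with the drug. All 6 mesenchymal markers averaged at least 1 CPM, with *VIM* and *SPARC* the highest. The endothelial markers were all under 1 CPM. Of the leukocyte markers *CD68*, a lysosomal protein also made outside macrophages, was the one above 1 CPM, with group means of 20.4 and 23.0 CPM in siCtr cells and 73.5 and 61.7 CPM in siATF4 cells without and with the drug. Of 5 fibroblast and stellate markers *PDGFRB* and *RGS5* were above 1 CPM, and the list summed to 51.4 to 53.4 CPM without and at least 94.0 CPM with the drug in siCtr, and to 10.6 to 11.6 and 22.4 to 24.1 CPM in siATF4 cells. The part of these markers in the results was not tested. In bulk RNA, fewer cells of a kind and less RNA per cell cannot be told apart.

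The response to Sorafenib differed between the arms for 1659 genes (12.3% of those tested), called at a limma adjusted p under 0.05 and an absolute difference of at least 0.58, the fold change threshold of the study's methods. The difference was negative for 1077 genes (7.97%) and positive for 582 (4.31%). With quantile normalization, which forces equal distributions on the libraries, the split was 810 to 723. By the adjusted p alone 41.1% of the genes passed. The median difference over all tested genes was -0.015, and the middle 90% lay between -0.72 and 0.55. In siCtr cells Sorafenib raised 1665 genes (12.3%) and lowered 696 (5.15%), and in siATF4 cells it raised 768 (5.68%) and lowered 398 (2.94%). Under quantile normalization these were 1125 and 1025 in siCtr and 552 and 456 in siATF4 cells. At the same thresholds fewer genes passed in siATF4 than in siCtr cells.

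Of the 1665 genes raised in siCtr cells, 610 (36.6%) had a negative difference, 13 a positive one and 1042 (62.6%) no called difference. Of the 696 lowered genes, 303 (43.5%) had a positive difference, 14 a negative one and 379 (54.5%) none. The siCtr response chose these genes and enters the difference with a minus sign. The choice therefore favours differences of the opposite sign, and a part of both splits follows from it. Of the raised genes 459 (27.6%), and of the lowered genes 111 (15.9%), were also called in the same direction in siATF4 cells. Another 94 genes were raised and 168 lowered in siATF4 cells with a siCtr response under 0.58, and the remaining 457 called genes (3.38%) met none of these rules.

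**Figure D1:**
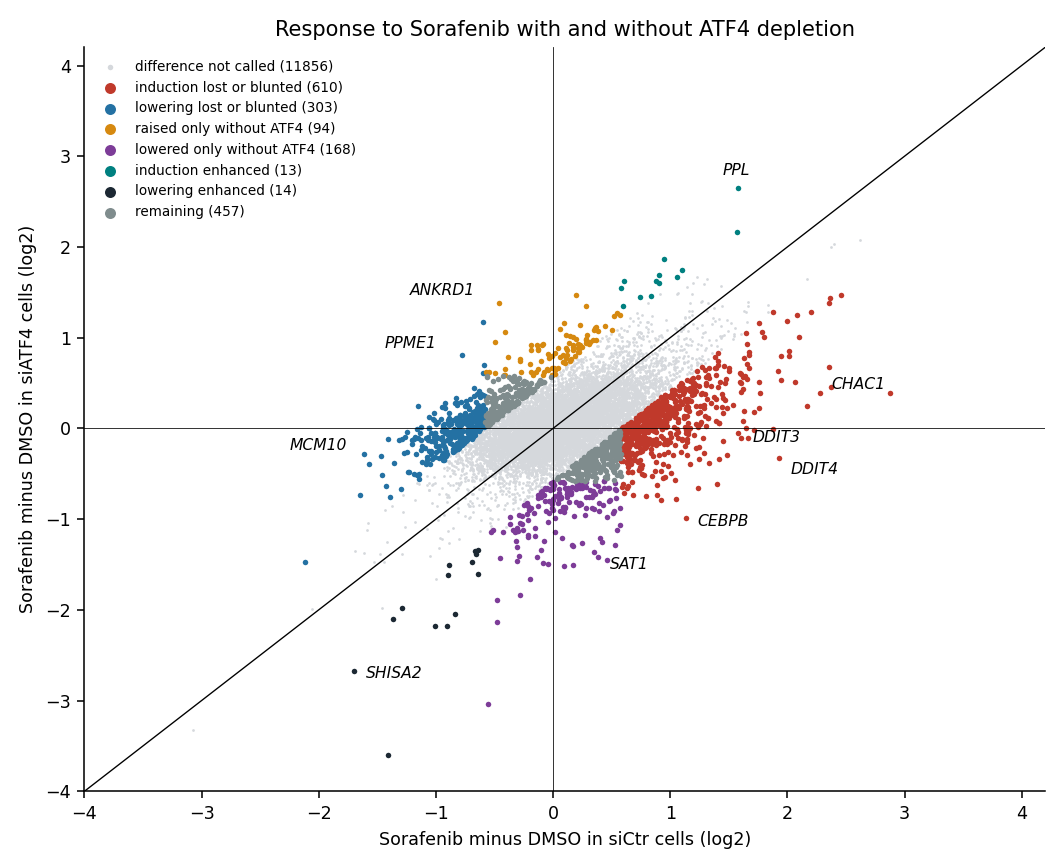
Response to Sorafenib of 13515 genes in siCtr cells (x axis, log2) and in siATF4 cells (y axis, log2), each the mean of 2 libraries minus the mean of 2. Colours mark the classes set by the calls, grey points had no called difference, and the line marks equal responses. The 610 genes of lost or blunted induction lie below the line, mostly near a siATF4 response of 0, and the 303 of lost or blunted lowering lie above it.

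Induction that was lost or blunted in siATF4 cells was found for 610 genes (4.51% of those tested), and for 421 under quantile normalization. The response in siATF4 cells stayed under 0.58 in either direction for 554 of them, was still called as a rise for 41, and was called as a fall for 15. Their median response was 0.92 in siCtr and 0.07 in siATF4 cells, values that the choice of the class bears on. The 4 differences between single libraries in one arm and the 4 in the other overlapped for none of the 610 genes, and for 66.2% of all tested genes they did not overlap either. The siY_T cells, which entered the filter and the estimate of the spread and not the responses that define the class, had a median response of 0.49 for these genes, and 237 of the 610 (38.9%) were called raised there, against 5.83% of all tested genes and 31.7% of the 1042 drug-raised genes with no called difference.

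The genes of this class with the largest differences, among those with a mean of at least 5 CPM, are given first. *DDIT4* (Entrez Gene 54541, GRCh37 chromosome 10 from 74033678 to 74035794), which encodes the mTORC1 inhibitor REDD1, stood at 16.5 and 17.6 CPM in siCtr DMSO and 65.4 and 67.3 CPM in siCtr Sorafenib cells. In siATF4 cells it stood at 8.68 and 7.53 CPM in DMSO and 6.56 and 6.14 CPM with Sorafenib, below all siCtr libraries. Its rise of 1.93 on the log2 scale was absent in siATF4 cells, at -0.33, and the difference was -2.25 (standard error 0.11, limma adjusted p = 2.13e-07). *CHAC1*, a glutathione-degrading enzyme, went from 3.71 and 3.40 to 18.0 and 20.3 CPM in siCtr cells and from 1.74 and 1.70 to 2.43 and 2.38 CPM in siATF4 cells. All 4 siATF4 libraries lay below the siCtr DMSO libraries, the response was 2.28 in siCtr and 0.39 in siATF4 cells, and the difference was -1.89 (standard error 0.19, limma adjusted p = 1.28e-05). *ADM2*, which encodes the peptide adrenomedullin 2, went from 4.89 and 4.22 to 24.0 and 26.6 CPM in siCtr cells and from 2.01 and 1.92 to 3.66 and 3.23 CPM in siATF4 cells. It kept a rise of 0.68 in siATF4 cells, and so was blunted rather than lost, with a difference of -1.68.

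*SLC7A11* (Entrez Gene 23657, GRCh37 chromosome 4 from 139085251 to 139163503), the cystine importer xCT, measured 24.7 and 21.7 CPM in siCtr DMSO, 64.5 and 67.1 CPM in siCtr Sorafenib, 11.7 and 11.4 CPM in siATF4 DMSO and 14.2 and 13.1 CPM in siATF4 Sorafenib cells. The siATF4 libraries with the drug stayed below the siCtr libraries without it, and the response was 1.48 in siCtr and 0.23 in siATF4 cells, a difference of -1.26 (standard error 0.20, limma adjusted p = 3.60e-04). In siY_T cells *SLC7A11* was at 7.67 and 8.16 CPM in DMSO and 25.3 and 16.2 CPM with Sorafenib. The 2 drug-treated libraries differed more there than in the other groups, the response was 1.31, and the siATF4 response minus this one was -1.08 (limma adjusted p = 0.00134). *PSD4*, an exchange factor for ARF GTPases, showed the same order of groups, with 4.31 and 4.42 CPM rising to 15.8 and 16.1 CPM in siCtr cells and 2.34 and 2.24 against 2.69 and 2.83 CPM in siATF4 cells.

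*ATF3*, another bZIP factor of the pathway, was not in this class. It stood at 21.3 and 21.2 CPM and rose to 35.8 and 35.8 CPM in siCtr cells, and it went from 14.4 and 14.8 to 19.9 and 19.2 CPM in siATF4 cells. Its response was 0.74 in siCtr and 0.41 in siATF4 cells, and the difference of -0.33 (limma adjusted p = 0.00685) was under the minimum of 0.58.

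The levels in DMSO divided these genes further. Of the 610, siATF4 lowered 188 in DMSO (14.1% of all tested genes were called lower), raised 64 (8.56% of all) and left 358 without a call. Under Sorafenib 481 of the 610 were lower in siATF4 cells (18.7% of all tested genes), a count that the choice of the class on the difference bears on. The effect of siATF4 under Sorafenib is the sum of its effect in DMSO and of the difference, so the medians of -1.93 for the 188, -0.89 for the 358 and 0.02 for the 64 follow in part from the split and are a description. Of the 64 already raised in DMSO, 52 were not called different between the arms under the drug. The split was made after the values had been seen.

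*DDIT3* (Entrez Gene 1649, GRCh37 chromosome 12 from 57910371 to 57915520), which encodes the stress factor CHOP, was among the 64. It measured 26.2 and 25.3 CPM in siCtr DMSO and 80.6 and 77.6 CPM in siCtr Sorafenib cells, whereas siATF4 cells held 108 and 107 CPM in DMSO and 97.0 and 101 CPM with Sorafenib. All 4 siATF4 libraries were above the siCtr Sorafenib libraries, and the drug response of 1.60 was -0.11 in siATF4 cells, a difference of -1.71 (standard error 0.068, limma adjusted p = 3.71e-08). *CEBPB*, a C/EBP partner of ATF4, rose from 24.9 and 28.0 to 56.8 and 60.4 CPM in siCtr cells and was 129.6 and 123 CPM in siATF4 DMSO and 64.2 and 62.3 CPM in siATF4 Sorafenib cells. Here the drug lowered the gene in siATF4 cells (log2 change -0.99), and the levels with the drug were close in both arms (siATF4 minus siCtr 0.11). *CEBPB-AS1*, an antisense gene at this locus, moved in the same directions, and since the strand setting of the counting is not given in the sources used here, the reads of such pairs cannot be told apart. *SESN2*, which encodes the mTORC1 inhibitor sestrin 2, went from 9.21 and 9.90 to 23.2 and 23.1 CPM in siCtr cells and from 23.6 and 23.3 to 13.7 and 15.7 CPM in siATF4 cells. *TRIB3*, a pseudokinase that feeds back on the pathway, went from 44.1 and 38.5 to 112 and 121 CPM and from 70.5 and 78.0 to 57.8 and 62.9 CPM. In siATF4 cells *SESN2* was called lowered and *TRIB3* was not called, with differences of -1.89 and -1.78.

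Responses in opposite directions, called in both arms, were found for 19 genes, 15 raised in siCtr and lowered in siATF4 cells and 4 the other way. The number was 52 with edgeR and 44 with DESeq2. Next to *CEBPB* and *SESN2* they included *KDM6B*, a histone H3K27 demethylase, which measured 12.9 and 14.2 CPM rising to 27.8 and 29.4 CPM in siCtr cells and 20.3 and 18.8 CPM falling to 11.1 and 11.2 CPM in siATF4 cells. *GDF15*, a secreted stress cytokine, went from 5.05 and 4.97 to 9.35 and 10.6 CPM in siCtr cells and from 9.17 and 9.78 to 5.63 and 4.97 CPM in siATF4 cells. For *GDF15* the siCtr libraries with the drug and the siATF4 libraries without it lay at similar levels, and for *KDM6B* the siCtr libraries with the drug were the highest.

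**Figure D2:**
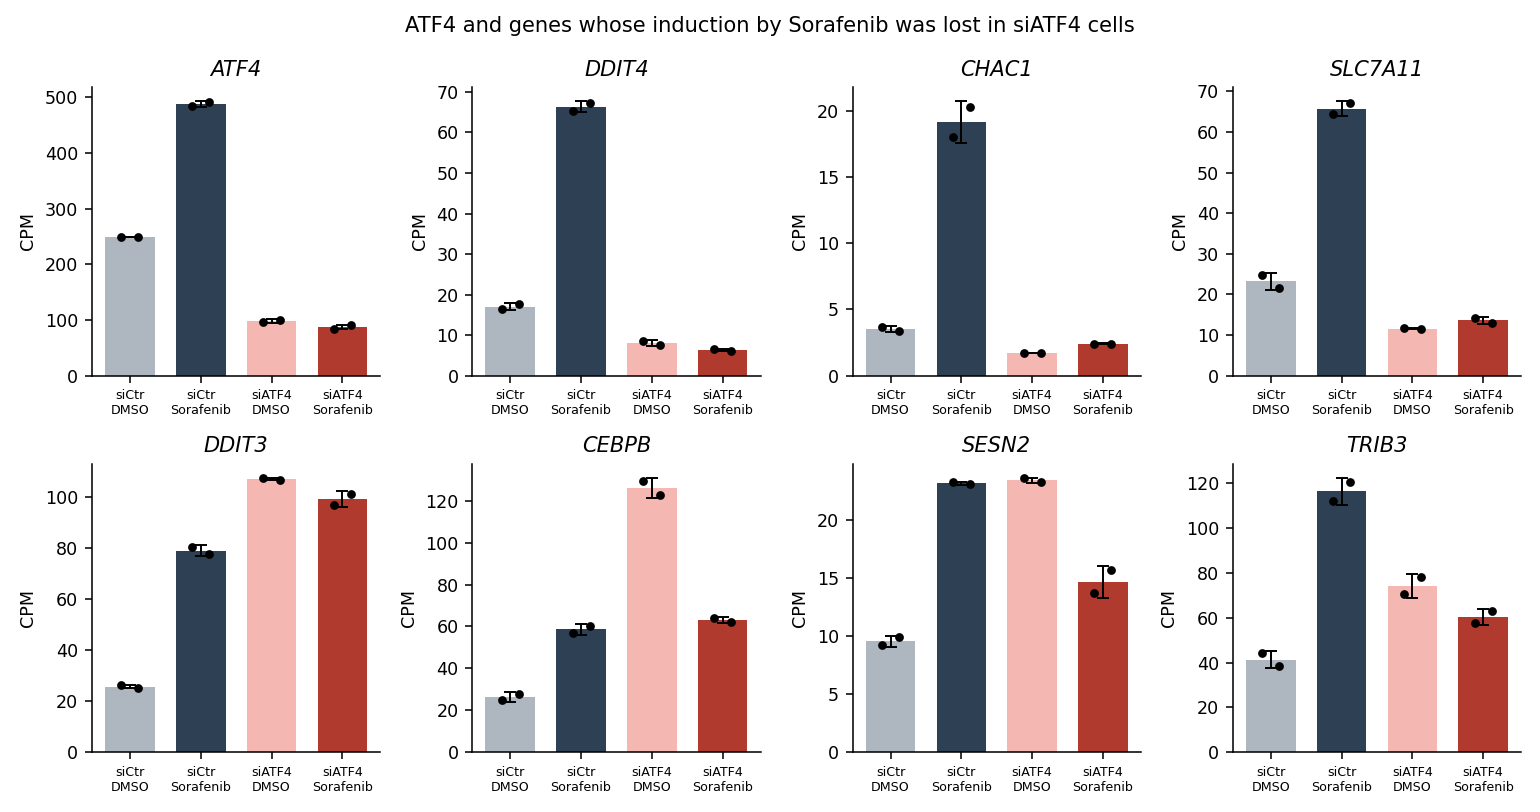
CPM of *ATF4* and 7 genes of lost or blunted induction in the 4 groups. Bars are means of 2 libraries, error bars are SD, points are the libraries, and each panel has its own axis from 0. *DDIT4*, *CHAC1* and *SLC7A11* stay low in siATF4 cells, whereas *DDIT3*, *CEBPB* and *SESN2* are already raised there in DMSO.

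The ISR itself was described by lists of its genes. Among 17 transcription factors and feedback genes of the pathway, 10 had a called negative difference and 0 a positive one, beside 7.97% and 4.31% of all genes, and the median difference was -0.76. In siCtr cells 11 of the 17 rose with Sorafenib and in siATF4 cells 0 did, beside 12.3% and 5.68% of all genes. *ATF4*, the target of the siRNA, is a member of this list and is counted among the 10 and the 11. *CEBPG*, a C/EBP partner of ATF4, went from 45.4 and 45.0 to 81.9 and 80.2 CPM in siCtr and from 68.1 and 70.1 to 79.2 and 79.2 CPM in siATF4 cells. *NUPR1*, a small stress-induced chromatin protein, rose from 0.877 and 0.954 to 9.82 and 9.91 CPM in siCtr cells and had 0.0857 and 0 CPM in siATF4 DMSO and 0.228 and 0.193 CPM in siATF4 Sorafenib cells. With so few reads in siATF4 cells its difference of -2.48 depended on the pseudocount, and it was not called by edgeR (-1.14, adjusted p = 0.353) or DESeq2 (-1.07, adjusted p = 0.325). *PPP1R15A*, the phosphatase subunit GADD34 that reverses eIF2alpha phosphorylation, was raised by siATF4 in DMSO, from 46.5 and 49.9 to 239.9 and 255 CPM, and its difference of -0.46 was under the minimum. The other called members were the bZIP factors *CEBPD* (-0.96), *NFIL3* (-0.98), *JDP2* (-0.86) and *BATF2* (-0.76). *ATF5* was the one member that the drug lowered in siCtr cells, from 55.4 and 52.6 to 30.8 and 30.8 CPM, and its difference of 0.50 was under the minimum.

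Of 16 ISR kinases, translation factors and their regulators, 1 was called, the start-codon selection factor *EIF1* (difference -0.76). The list also holds *EIF4EBP1*, *EIF4EBP2* and *DNAJC3* and is not limited to genes upstream of ATF4. *EIF1* was at 465 and 471 CPM in DMSO and 639 and 637 CPM with Sorafenib in siCtr cells. In siATF4 cells it was at 724 and 762 CPM in DMSO and 589 and 604 CPM with Sorafenib. The called share was 6.25%, against 12.3% of all tested genes. The median of the 16 was 0.20, and 8 of them had positive differences that passed the adjusted p without the minimum.

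The amino acid genes that ATF4 is best known for followed. Of 18 enzymes of amino acid and one-carbon synthesis, 3 had a negative difference and 0 a positive one (16.7% called, against 12.3% of all tested genes), with a median of -0.10. *CBS*, which opens transsulfuration, went from 51.8 and 46.9 to 95.6 and 104 CPM in siCtr cells and stayed at 14.7 and 14.7 against 13.8 and 13.7 CPM in siATF4 cells. *MTHFD2*, a mitochondrial folate enzyme, rose from 99.7 and 94.0 to 169 and 166 CPM in siCtr cells and was 113 and 112 CPM in DMSO and 100.4 and 96.6 CPM with Sorafenib in siATF4 cells. The third was *PYCR3*, a proline synthesis enzyme (-0.93). *ASNS*, asparagine synthetase, was lower after depletion with and without the drug, with 99.6 and 89.2 CPM in siCtr DMSO, 120.4 and 124 CPM in siCtr Sorafenib, 34.2 and 35.8 CPM in siATF4 DMSO and 32.8 and 31.3 CPM in siATF4 Sorafenib cells. The siRNA lowered it in DMSO (log2 change -1.42), the drug response was 0.37 in siCtr and -0.12 in siATF4 cells, and the difference of -0.49 (limma adjusted p = 0.0296) was under the minimum. *PSAT1*, a serine synthesis enzyme, had 171 and 167 CPM in DMSO and 228 and 227 CPM with Sorafenib in siCtr and 75.6 and 76.5 CPM in DMSO and 88.7 and 82.3 CPM with Sorafenib in siATF4 cells, and its difference of -0.26 did not pass the test (limma adjusted p = 0.130).

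Among 14 amino acid transporters 4 had a negative difference and 1 a positive one (35.7% called, against 12.3% of all tested genes), with a median of -0.43. Beside *SLC7A11*, the glycine transporter *SLC6A9* rose from 10.3 and 9.61 to 19.5 and 19.8 CPM in siCtr cells and was at 3.36 and 3.64 CPM in DMSO and 3.89 and 3.34 CPM with Sorafenib in siATF4 cells. The taurine transporter *SLC6A6* showed the same order, with 202 and 219, then 333 and 318 CPM in siCtr cells and 72.3 and 67.2, then 70.4 and 67.5 CPM in siATF4 cells. The glutamine transporter *SLC38A7* was the other negative one (-0.69). The positive one was *SLC7A6* (0.59), which the drug lowered in siCtr cells. Of 21 cytosolic aminoacyl-tRNA synthetases, which charge tRNAs, *CARS1* alone was called (difference -0.80), 4.76% of the list. Without the minimum, 10 negative and 5 positive differences of these genes passed the adjusted p. *AARS1* went from 472 and 459 to 871 and 873 CPM in siCtr cells and from 503 and 523 to 652 and 678 CPM in siATF4 cells, with a difference of -0.53.

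The core of the C/EBP-ATF composite element, TGATGNAA on either strand, was looked for in promoters from RefSeq (GRCh38.p14), from 250 bases before to 50 bases after the start of each gene. Promoters were found for 10711 of the 13515 genes, and 1.70% of them held the motif, whose opening letters TGA also begin AP-1 and CRE sites. The share was 1.77% of the 453 promoters of the lost or blunted class, and it was 37.5% of 16 promoters of the synthetases, 25.0% of 12 of the synthesis enzymes, 25.0% of 12 of the transporters and 14.3% of 14 of the ISR transcription factors. The stretches below show it in 2 genes of the class and in a synthetase whose difference missed the minimum, on the strand of the gene and with the motif or its reverse complement in capitals. They lie at chr15:40953222-40953309 for *CHAC1* (+ strand), chr1:44800204-44800291 for *PLK3* (+), a stress-responsive kinase with a difference of -1.17, and chr16:70289646-70289733 for *AARS1* (- strand).
CHAC1: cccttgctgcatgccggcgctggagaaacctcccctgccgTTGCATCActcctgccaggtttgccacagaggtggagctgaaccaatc
PLK3: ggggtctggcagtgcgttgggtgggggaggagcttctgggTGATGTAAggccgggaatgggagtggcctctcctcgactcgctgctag
AARS1: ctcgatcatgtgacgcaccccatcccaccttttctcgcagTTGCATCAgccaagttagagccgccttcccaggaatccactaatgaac

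Genes that restrain growth had more negative than positive differences, as did all tested genes. Of 15 stress-induced mTORC1 brakes and growth arrest genes, 7 had a negative and 1 a positive difference, with a median of -0.36. Of all tested genes 7.97% had a negative and 4.31% a positive difference. *BTG1*, an antiproliferative cofactor, rose from 23.8 and 25.7 to 48.7 and 45.7 CPM in siCtr cells and went from 46.1 and 47.9 to 35.1 and 32.4 CPM in siATF4 cells, and *BBC3*, the BH3-only protein PUMA, went from 3.15 and 3.24 to 7.30 and 7.57 CPM and from 4.65 and 5.07 to 3.96 and 4.94 CPM. The BH3-only gene *PMAIP1* (-0.85), the amino acid sensor *CASTOR1* (-0.88) and the mTOR inhibitor *DEPTOR* (-0.70) were also negative. *GADD45B* was the positive one (0.70), raised in siATF4 cells. *CDKN1A*, the cell cycle inhibitor p21, was not called. It fell with the drug in both arms, from 15.6 and 15.2 to 6.81 and 7.59 CPM in siCtr and from 107 and 97.6 to 37.2 and 39.6 CPM in siATF4 cells, where its level was far higher.

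Among 16 secreted stress factors 10 had a negative and 1 a positive difference, beside 7.97% and 4.31% of all genes, with a median of -0.73. In siCtr cells 3 of the 16 rose and 6 fell with Sorafenib (12.3% and 5.15% of all genes). In siATF4 cells 1 rose and 12 fell (5.68% and 2.94% of all genes). The siRNA had raised 11 of the 16 in DMSO (8.56% of all genes). *STC2*, stanniocalcin 2, rose from 40.3 and 35.7 to 58.0 and 64.6 CPM in siCtr cells and fell from 59.0 and 53.3 to 33.2 and 33.7 CPM in siATF4 cells. *VEGFA*, the angiogenic growth factor, had 66.1 and 72.1 CPM in DMSO and 96.8 and 99.0 CPM with Sorafenib in siCtr and 48.9 and 47.2 CPM in DMSO and 44.6 and 45.7 CPM with Sorafenib in siATF4 cells. For the chemokine *CXCL2* the negative difference was a deeper fall, from 10.6 and 11.1 to 1.74 and 2.33 CPM in siATF4 cells against 2.16 and 2.55 to 0.665 and 1.22 CPM in siCtr cells. *CXCL1* (-0.94) and *CXCL3* (-0.82) were negative as well. The positive one was the chemokine *CCL2* (0.64), which fell less in siATF4 cells.

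Of 22 glutathione and ferroptosis genes, 5 had a negative difference and 2 a positive one (31.8% called, against 12.3% of all tested genes), with a median of -0.09. *CHAC1*, *SLC7A11* and *CBS* had lost their induction, and *SAT1* and *HMOX1* were lowered in siATF4 cells alone. *TFRC*, the transferrin receptor, was positive. It went from 324 and 336 to 139 and 138 CPM in siCtr cells and from 265 and 269 to 229 and 216 CPM in siATF4 cells (difference 0.99, limma adjusted p = 1.22e-05). The other positive one was *CHAC2*, a homologue of *CHAC1* (0.66). Of 22 NRF2 targets 3 had a negative difference, *HMOX1*, *SLC7A11* and the reductase *AKR1C3*, and 1 a positive one, the efflux pump *ABCC2* (0.69), so 18.2% were called. *AKR1C3* was not called by edgeR or DESeq2, and *ABCC2* lost its call without 1 siATF4 DMSO library. Of 24 endoplasmic reticulum chaperones and unfolded protein response genes, 2 were called, the ubiquitin ligase adaptor *HERPUD1* (-0.92) and the stress sensor *ERN1* (-0.67), both negative, *ERN1* without a call under quantile normalization, and the median was 0.05. Of 17 heat shock chaperones, *HSPH1* (0.84) and *HSP90AA1* (0.71) were positive, and the drug lowered both in siCtr and neither in siATF4 cells by the call.

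Lowering was lost or blunted in siATF4 cells for 303 genes (2.24% of those tested). Under quantile normalization there were 431, more than the 421 lost inductions, so the order of the 2 classes turned with this scaling. The response in siATF4 cells was under 0.58 for 294 of them, was still called as a fall for 5 and was called as a rise for 4. Of these genes siATF4 lowered 56 and raised 18 in DMSO, beside 14.1% and 8.56% of all tested genes, and left 229 without a call. Under Sorafenib 190 were higher in siATF4 than in siCtr cells (10.3% of all tested genes). The choice of the class bears on these counts. In siY_T cells 191 of the 303 (63.0%) were called lowered by the drug, against 4.14% of all tested genes and 39.8% of the 379 drug-lowered genes with no called difference, and 0 were called raised. The 379 genes also responded less in siCtr cells, with a median of -0.69 against -0.80 for the 303. The part of this in the 2 shares was not tested.

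Cell cycle genes were among the largest of this class. *MCM10* (Entrez Gene 55388, GRCh37 chromosome 10 from 13203558 to 13253110), which helps to start the replicative helicase, stood at 106 and 104 CPM in siCtr DMSO and 33.2 and 34.6 CPM in siCtr Sorafenib cells. In siATF4 cells it stood at 97.3 and 104 CPM in DMSO and 82.3 and 83.8 CPM with Sorafenib. The drug response was -1.62 in siCtr and -0.28 in siATF4 cells, a difference of 1.34 (standard error 0.10, limma adjusted p = 1.94e-06). *CLSPN*, the checkpoint adaptor claspin, went from 149.8 and 155 to 55.2 and 59.1 CPM in siCtr cells and from 145 and 153 to 138 and 137 CPM in siATF4 cells. *MCM4*, a subunit of the helicase, went from 455 and 445 to 229 and 247 CPM and from 329 and 332 to 407 and 397 CPM. In each of these the siATF4 Sorafenib libraries lay above both siCtr Sorafenib libraries. *ZNF367*, a zinc finger factor, and *ZGRF1*, a helicase of DNA repair, had differences of 1.21 and 1.19. *PPME1*, a methylesterase of the phosphatase PP2A, was lowered in siCtr cells, from 466 and 475 to 271 and 279 CPM, and raised in siATF4 cells, from 241 and 287 to 452 and 467 CPM. *EFHB* and *SERPINB7*, a serine protease inhibitor, likewise rose in siATF4 cells, with differences of 1.77 and 1.28.

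The DNA replication list showed it as a group. Of 31 genes, 28 had a called positive difference and 0 a negative one, beside 4.31% and 7.97% of all genes. Sorafenib lowered 27 of the 31 in siCtr cells (5.15% of all genes), 1 in siATF4 cells (2.94%) and 28 in siY_T cells (4.14%). The median responses were -0.91, 0.003 and -0.87. In DMSO siATF4 changed 0 of the 31 by the call, whereas 8.56% of all genes were called higher and 14.1% lower. Under Sorafenib 25 were higher in siATF4 cells (10.3% of all genes). *MCM6*, another helicase subunit, measured 246 and 257 CPM falling to 129 and 135 CPM in siCtr cells, 203 and 206 CPM in DMSO and 244 and 233 CPM with Sorafenib in siATF4 cells, and 225 and 219 CPM falling to 131 and 122 CPM in siY_T cells. The fall was present in both arms without the siRNA against ATF4, and the siATF4 response was higher than the siY_T response by 1.03 (limma adjusted p = 4.59e-07). All 6 subunits of the MCM2-7 helicase were positive, between 0.66 (*MCM7*) and 1.20 (*MCM4*), as were the clamp *PCNA* (0.79), the nucleotide enzymes *TYMS* (0.92) and *RRM1* (0.79) and the cyclin *CCNE2* (0.98). *E2F2*, an activator of the replication programme, fell from 48.4 and 48.9 to 20.7 and 22.4 CPM in siCtr cells and measured 48.2 and 51.4 CPM in DMSO and 45.6 and 46.7 CPM with Sorafenib in siATF4 cells. *CDC6*, a licensing factor, fell from 128 and 131 to 45.2 and 48.1 CPM in siCtr cells and went from 103 and 100.1 to 85.7 and 79.3 CPM in siATF4 cells.

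Mitosis genes had the same sign of difference and another order of levels. Of 28 genes, 20 had a positive and 0 a negative difference, beside 4.31% and 7.97% of all genes, with a median of 0.72. Sorafenib lowered 18 of the 28 in siCtr cells (5.15% of all genes), 0 in siATF4 cells (2.94%) and 26 in siY_T cells (4.14%). The siRNA against ATF4 had itself lowered 18 of them in DMSO (14.1% of all genes), and the median of siATF4 against siCtr was -0.67 in DMSO and 0.01 under Sorafenib. Relative to siCtr DMSO the median level in siATF4 Sorafenib cells was -0.55 for mitosis and -0.08 for replication genes. *PLK1*, a mitotic kinase, stood at 208 and 203 CPM in siCtr DMSO, 124 and 129.9 CPM in siCtr Sorafenib, 124 and 118 CPM in siATF4 DMSO and 126 and 129 CPM in siATF4 Sorafenib cells. *BUB1B*, a spindle checkpoint protein, stood at 164 and 168 CPM in siCtr DMSO, 99.0 and 99.8 CPM in siCtr Sorafenib, 95.4 and 96.9 CPM in siATF4 DMSO and 116 and 113 CPM in siATF4 Sorafenib cells. For both genes the siCtr DMSO libraries were above the other 6. The proliferation marker *MKI67* (0.76), the mitotic cyclin-dependent kinase *CDK1* (0.74) and the topoisomerase *TOP2A* (0.81) were among the 20.

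**Figure D3:**
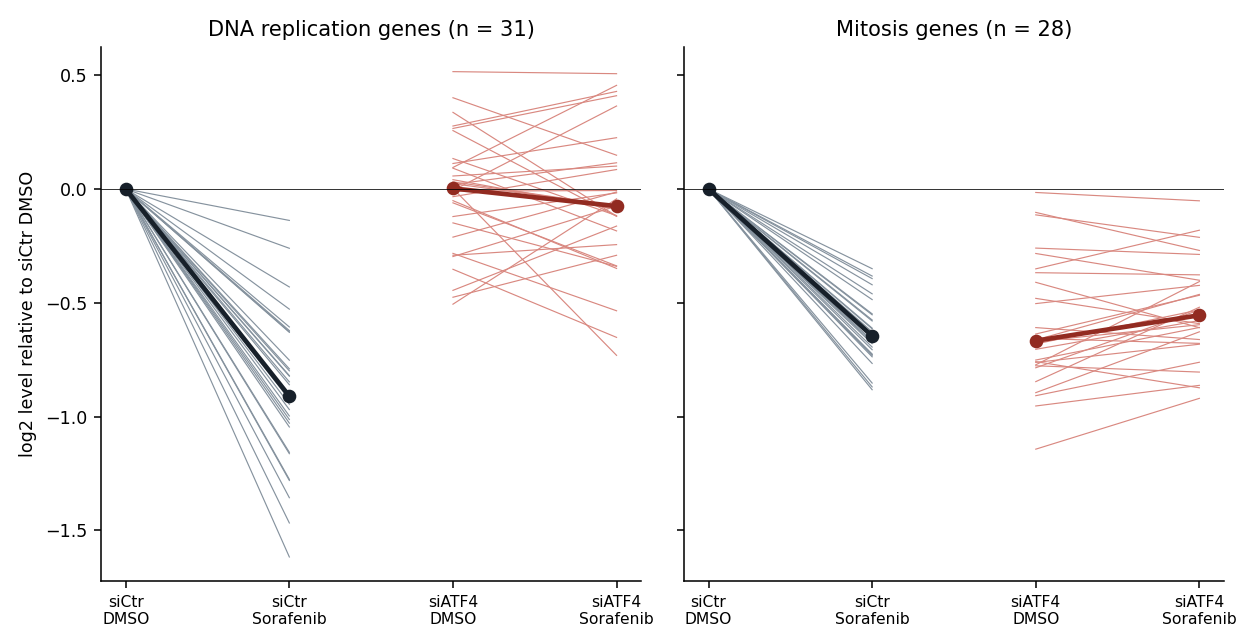
Levels of 31 DNA replication genes and 28 mitosis genes in the 4 groups, as log2 relative to siCtr DMSO, with 1 thin line per gene and arm and the median as a thick line with points. Replication genes fall with Sorafenib in siCtr cells (median -0.91) and stay near 0 in both siATF4 groups, while mitosis genes are lowered by siATF4 in DMSO already (median -0.67).

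An E2F-type motif, TTTGGCGC or TTTCCCGC on either strand, was searched in the same promoters. It was chosen after the class had been seen to hold replication genes, so its share is a description. It was present in 3.72% of all 10711 promoters, in 16.3% of the 246 promoters of the lost or blunted lowering class and in 4.26% of the 282 promoters of drug-lowered genes with no called difference. Of 26 promoters of the replication list 17 held it. The stretches below show it in 3 replication genes, with the motif or its reverse complement in capitals, at chr2:135876486-135876635 for *MCM6*, chr1:23531234-23531315 for *E2F2* and chr16:85688955-85689025 for *GINS2*, a subunit of the helicase complex, all on the - strand of GRCh38.p14.
MCM6: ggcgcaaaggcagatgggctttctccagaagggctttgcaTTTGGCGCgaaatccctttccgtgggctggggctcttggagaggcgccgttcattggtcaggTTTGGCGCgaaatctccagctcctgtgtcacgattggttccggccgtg
E2F2: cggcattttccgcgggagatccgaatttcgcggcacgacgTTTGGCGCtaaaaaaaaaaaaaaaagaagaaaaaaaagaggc
GINS2: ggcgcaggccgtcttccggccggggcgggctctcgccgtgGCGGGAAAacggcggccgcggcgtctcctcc

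Genes raised by Sorafenib in siATF4 and not in siCtr cells numbered 94 (0.696% of those tested). The siRNA had lowered 65 of them in DMSO and raised 1, beside 14.1% and 8.56% of all genes, counts that the choice of the class bears on. Their median response in siY_T cells was 0.001. *ANKRD1* (Entrez Gene 27063, GRCh37 chromosome 10 from 92671853 to 92680844), an ankyrin repeat protein and YAP/TAZ target, stood at 1.38 and 1.75 CPM in siCtr DMSO and 0.887 and 1.12 CPM in siCtr Sorafenib cells, and rose from 6.06 and 6.61 to 17.2 and 17.6 CPM in siATF4 cells. The siRNA had raised the gene in DMSO already (log2 change 1.73), and the difference was 1.84 (standard error 0.21, limma adjusted p = 2.50e-05). *BDNF*, a neurotrophin, had 9.27 and 8.77 CPM in DMSO and 6.17 and 6.33 CPM with Sorafenib in siCtr and 7.97 and 8.91 CPM in DMSO and 16.8 and 16.7 CPM with Sorafenib in siATF4 cells. The siATF4 Sorafenib libraries stood above the other 6. *MDGA1*, a membrane-anchored adhesion protein, and *KIT*, a receptor tyrosine kinase, were lower after siATF4 in DMSO, as most of the class was. *MDGA1* had 691 and 624 CPM in DMSO and 684 and 717 CPM with Sorafenib in siCtr and 179 and 197 CPM in DMSO and 407 and 435 CPM with Sorafenib in siATF4 cells. *KIT* averaged 12.8 ± 1.17 CPM in DMSO and 8.92 ± 0.385 CPM with Sorafenib in siCtr cells, against 5.50 ± 0.261 and 8.67 ± 0.330 CPM (± SD, n = 2) in siATF4 cells. *UPK1B*, *ATOH8*, *ATP7B* (a copper exporter) and *LRRC32* (which anchors latent TGF-beta) had differences between 1.07 and 1.20. For *LRRC32* the drug added more CPM in siCtr than in siATF4 cells, so its sign holds for ratios and not for CPM.

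Genes lowered by Sorafenib in siATF4 and not in siCtr cells numbered 168 (1.24%). The siRNA had raised 67 of them in DMSO and lowered 13, beside 8.56% and 14.1% of all genes. The siATF4 DMSO libraries enter the difference, so the choice of the class bears on these counts. *SAT1* (Entrez Gene 6303, GRCh37 chromosome X from 23801290 to 23804327), the enzyme that acetylates spermidine and spermine, measured 7.44 and 7.26 CPM in DMSO and 10.0 and 9.50 CPM with Sorafenib in siCtr cells and fell from 41.6 and 37.1 to 14.2 and 14.6 CPM in siATF4 cells. Its difference was -1.80 (standard error 0.10, limma adjusted p = 2.90e-07), and in siY_T cells the drug raised it (1.26). *HMOX1*, heme oxygenase 1, stood at 98.5 and 92.4 CPM in DMSO and 89.9 and 95.7 CPM with Sorafenib in siCtr and at 440.3 and 387 CPM in DMSO and 138 and 154 CPM with Sorafenib in siATF4 cells. For both genes the siATF4 DMSO libraries were the highest, and the siATF4 Sorafenib libraries lay between these and the siCtr libraries. *SQSTM1*, the autophagy receptor p62, went from 441 and 425 to 636 and 622 CPM in siCtr cells, under the minimum of 0.58, and fell from 894 and 939 to 524 and 553 CPM in siATF4 cells. *ULK1*, the kinase that starts autophagy, went from 57.2 and 52.7 to 65.5 and 67.1 CPM and from 103 and 95.0 to 48.9 and 52.4 CPM.

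Signalling genes were among the largest of this class. *TRAF1*, an adaptor of TNF receptors, had 1.70 and 1.26 CPM in DMSO and 1.90 and 2.12 CPM with Sorafenib in siCtr and 26.7 and 28.5 CPM in DMSO and 9.44 and 11.5 CPM with Sorafenib in siATF4 cells. The cytokine *IL11* had 3.43 and 2.91 CPM in DMSO and 2.68 and 2.36 CPM with Sorafenib against 24.6 and 22.6 CPM in DMSO and 5.75 and 6.74 CPM with Sorafenib. For *IL11* the drug also lowered the gene in siY_T cells (-1.66), and the siATF4 and siY_T responses did not pass the test of their difference (-0.18, standard error 0.22, limma adjusted p = 0.566). *INO80B*, a subunit of the INO80 chromatin remodeller, was unlike these and was lower after siATF4 in DMSO, at 11.3 and 10.6 CPM against 18.0 and 17.4 CPM, and fell with the drug to 5.08 and 4.45 CPM. *TMEM158*, *WDR45* (an autophagy protein), *TMCC3* and *FAM86B1* had differences between -1.68 and -1.47. *FAM86B1* belongs to a family of near-identical copies and is uncertain, because reads with a single position were counted.

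**Figure D4:**
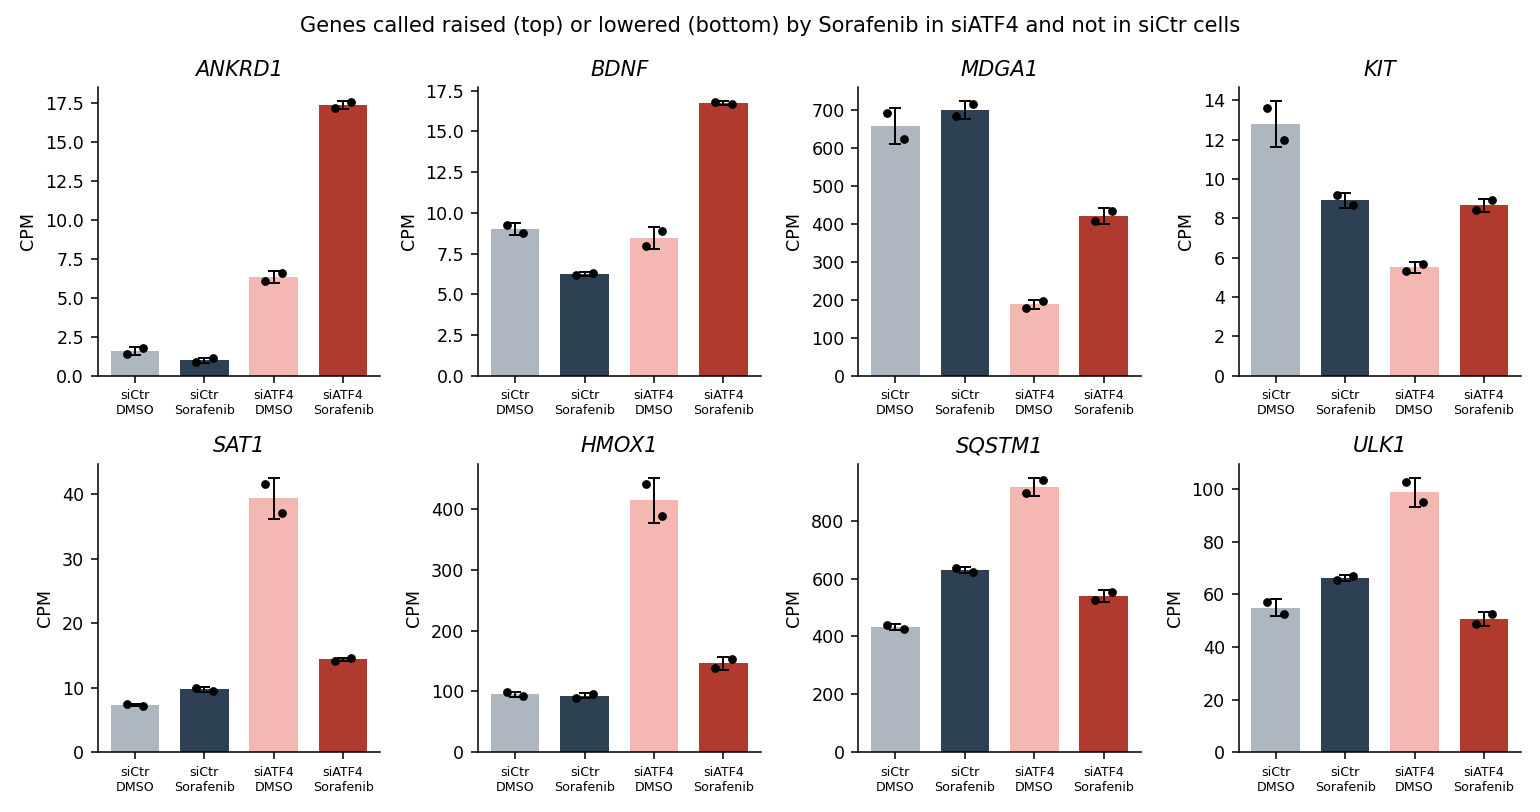
CPM of 4 genes called raised and 4 called lowered by Sorafenib in siATF4 and not in siCtr cells. Bars are means of 2 libraries, error bars are SD, points are the libraries, and each panel has its own axis from 0. *ANKRD1* and *BDNF* are highest in siATF4 Sorafenib cells, and the 4 lower genes peak in siATF4 DMSO cells.

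Few genes with a called response in siCtr cells had a called larger response in the same direction after depletion. The choice of genes by their siCtr response, which is subtracted in the difference, works against such calls. Induction was enhanced for 13 genes (0.0962%), all of them lowered by siATF4 in DMSO (14.1% of all genes). This count was 26 and 7 with pseudocounts of 0.1 and 1, and 25 with each of edgeR and DESeq2. *PPL*, the desmosomal protein periplakin, rose from 411 and 397 to 1211 and 1209.9 CPM in siCtr cells and from 39.3 and 34.5 to 242 and 224 CPM in siATF4 cells. As a ratio the rise was larger after depletion (difference 1.06), but in CPM it was smaller, and 10 of the 13 genes changed sign in this way on the linear scale. *PPM1H*, a phosphatase, had the larger rise on both scales, going from 16.4 and 16.8 to 24.8 and 26.2 CPM in siCtr cells and from 10.3 and 10.3 to 34.2 and 31.4 CPM, and *ANK1* had a difference of 0.97. *CGNL1*, a junction protein, resembled *PPL* (0.92). Lowering was enhanced for 14 genes (0.104%), of which siATF4 had raised 11 in DMSO (8.56% of all genes). *SHISA2* fell from 99.9 and 90.4 to 28.8 and 29.1 CPM in siCtr cells and from 126 and 117 to 19.1 and 18.3 CPM in siATF4 cells. *STC1*, stanniocalcin 1, fell from 17.9 and 17.9 to 6.67 and 6.65 CPM and from 137 and 111 to 29.6 and 27.1 CPM, and the cytokine *LIF* fell from 12.8 and 11.8 to 7.40 and 7.79 CPM and from 42.9 and 37.2 to 15.0 and 14.9 CPM. The differences of *STC1* and *LIF* were not called under quantile normalization. The gene *CPM*, for carboxypeptidase M, had the largest difference of the 4 named, -1.27.

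Targets of the pathways that Sorafenib and the other siRNA address were mixed. Of 21 feedback genes of the ERK pathway, which RAF inhibition is known to lower, 14 fell with the drug in siCtr and 12 in siATF4 cells. Of all tested genes 5.15% and 2.94% fell. Among the 21, 5 had a positive and 4 a negative difference, beside 4.31% and 7.97% of all genes. With edgeR and DESeq2 there were 9 positive and 3 negative ones. *CCND1*, cyclin D1, fell from 316 and 302 to 121 and 127 CPM in siCtr cells and was 581 and 557 CPM in DMSO and 528 and 517 CPM with Sorafenib in siATF4 cells (difference 1.19, limma adjusted p = 5.65e-06). The ETS factors *ETV1* (0.97) and *ETV5* (0.91) and the phosphatase *DUSP7* (0.80) were positive too, *ETV5* on the log scale and not in CPM. *SPRY4*, an inhibitor of the pathway, fell in both arms, from 4.21 and 4.33 to 0.585 and 0.611 CPM and from 27.5 and 24.6 to 8.61 and 9.55 CPM. *DUSP4*, a MAP kinase phosphatase, had 0.317 and 0.422 CPM in DMSO and 0.101 and 0.142 CPM with Sorafenib in siCtr cells, which is near the pseudocount, and its negative difference was not called by edgeR or DESeq2 (adjusted p = 0.114 and 0.218). Of 20 AP-1 and immediate early factors 6 had a negative and 1 a positive difference (35.0% called, against 12.3% of all tested genes). *JUNB* fell in siATF4 cells, from 26.6 and 27.5 to 10.4 and 11.9 CPM, and was at 19.0 and 18.3 CPM in DMSO and 17.1 and 18.2 CPM with Sorafenib in siCtr cells, while *FOSL1* was the positive one (0.64). *FOSB* (-0.96) was negative with all 8 libraries and lost its call without any of 4 of them and under quantile normalization, and *JUND* (-0.86), *NR4A1* (-0.74, not called under quantile normalization), *KLF2* (-0.61) and *IER3* (-0.61) were the other negative ones.

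Of 22 YAP/TAZ targets 4 had a positive and 0 a negative difference, beside 4.31% and 7.97% of all genes, with a median of 0.25. In either direction 18.2% of them were called, against 12.3% of all tested genes. Beside *ANKRD1* these were *IGFBP3*, *CCN2* and *GADD45B*. *IGFBP3*, a binding protein of insulin-like growth factors, fell from 528 and 518 to 212 and 214 CPM in siCtr cells and was 209 and 249 CPM in DMSO and 204 and 217 CPM with Sorafenib in siATF4 cells. *CCN2*, a matricellular protein, fell from 33.7 and 32.5 to 11.2 and 12.2 CPM in siCtr cells and went from 101 and 117 to 71.2 and 81.8 CPM in siATF4 cells, and its positive difference (0.95) is one of ratios, with the larger loss of CPM in siATF4 cells. Of 24 interferon-stimulated genes 6 had a negative difference and 0 a positive one (25.0% called). *IRF7*, a transcription factor of the interferon response (-1.30), and the exonuclease *ISG20* (-1.27) had the largest, followed by *OASL* (-1.05), *IFI35* (-0.76) and *TRIM22* (-0.65). Sorafenib raised 9 of the 24 in siCtr and 3 in siATF4 cells (12.3% and 5.68% of all genes). The siRNA against ATF4 lowered 10 in DMSO and 17 under Sorafenib (14.1% and 18.7% of all genes). *IFIT1*, which is counted among the 6 and in the 25.0%, measured 2.67 and 3.15 CPM in DMSO and 13.0 and 13.0 CPM with Sorafenib in siCtr cells. In siATF4 cells it measured 0.214 and 0.218 CPM in DMSO and 1.18 and 1.09 CPM with Sorafenib. Its difference of -0.80 turned to 0.21 with edgeR and 0.23 with DESeq2, so no direction is drawn for it.

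The called share of the other lists ran from 0 to 37.5%, against 12.3% of all tested genes. Of 25 hypoxia and glycolysis genes, 28 cytosolic ribosomal proteins and 29 nuclear-encoded respiratory chain subunits, 0 had a called difference by limma, although 10, 7 and 8 of them passed the adjusted p without the minimum of 0.58. In the hypoxia list 1 was called by edgeR and 0 by DESeq2, and in the ribosomal and respiratory lists 0 by both. Of 24 autophagy and lysosome genes 4 had a negative difference (16.7% called, near the 12.3% of all tested genes), among them *MAP1LC3A* (-0.96) and *WIPI1* (-0.77) beside *SQSTM1* and *ULK1*. Of 24 BCL2 family and death receptor genes 4 were negative (16.7% called), *BBC3*, *PMAIP1*, the inflammatory caspase *CASP4* (-0.75) and *BCL2A1*, the last not called by edgeR or DESeq2. Of 25 cholesterol and fatty acid synthesis genes the isomerase *IDI1* (0.80) and fatty acid synthase *FASN* (0.63) were positive and the regulator *SREBF1* (-0.79) negative, and *FASN* lost its call without 1 siCtr Sorafenib library. Among 15 metalloproteinase and plasminogen genes 3 were negative (20.0% called), *PLAU*, *MMP24* and *MMP14*. *PLAU*, urokinase, rose from 438 and 411 to 833 and 812 CPM in siCtr cells. In siATF4 cells it went from 493 and 467 to 444 and 423 CPM (difference -1.10). Of 8 metallothioneins and zinc transporters *MT2A* (-0.69), *MT1X* (-0.68) and *MT1F* (-0.61) were negative by little more than the minimum (37.5% called). *MT2A* lost the call without 1 library and *MT1F* without any of 6 of the 8 libraries compared. These 3 genes belong to 1 family of similar sequence. Only reads with a single position were counted, so reads that fit more than 1 copy were left out.

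**Figure D5:**
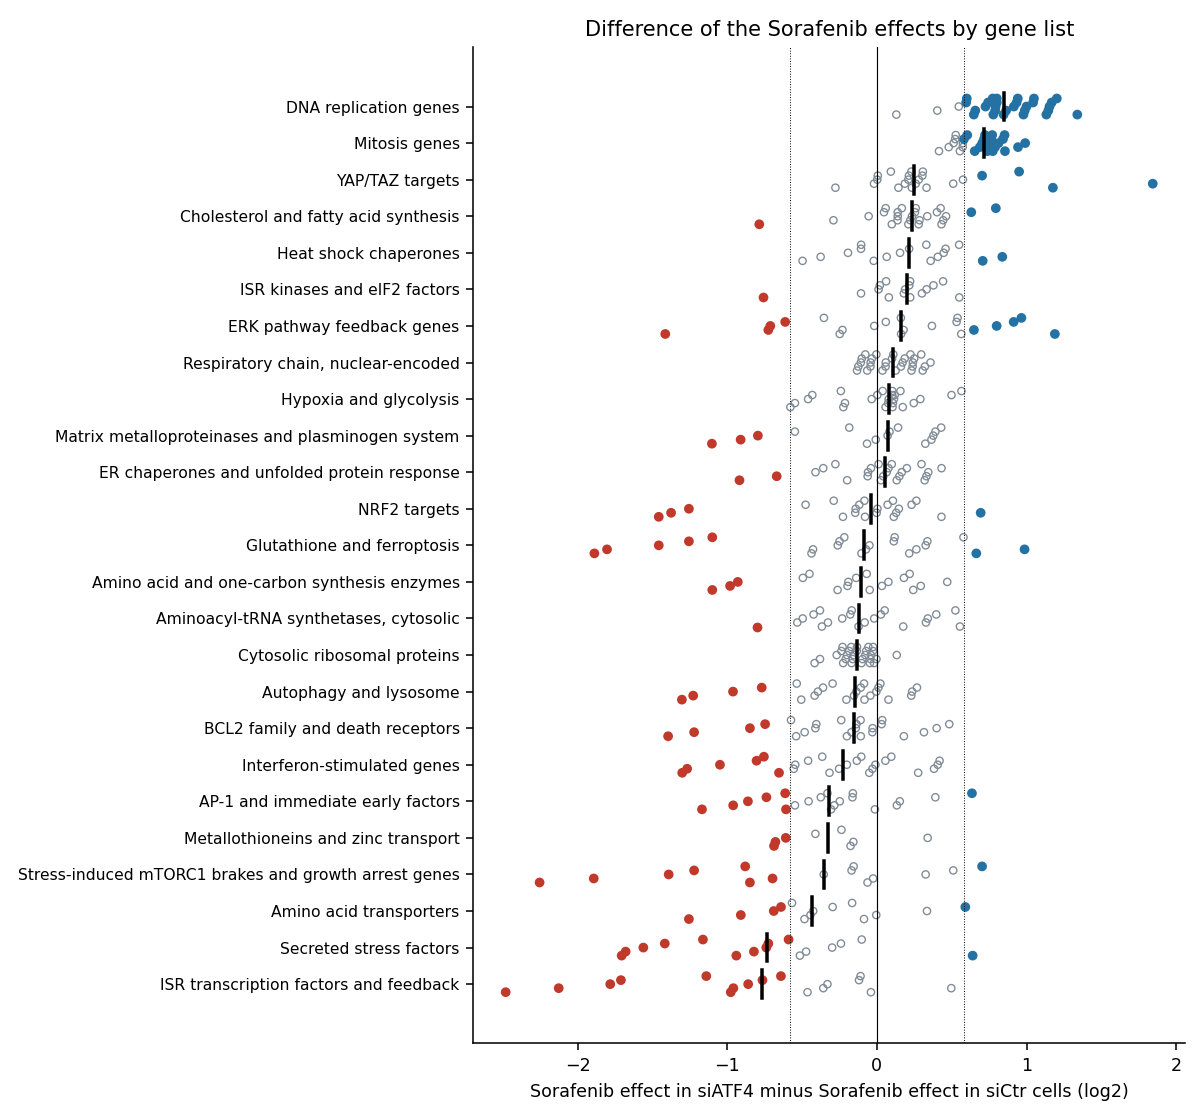
Difference of the Sorafenib effects (siATF4 minus siCtr, log2) for the tested members of 25 gene lists, sorted by median. Filled points passed the test at 0.58 (dotted lines), red for negative and blue for positive, open points did not, and bars mark the medians. DNA replication (0.85) and mitosis (0.72) genes stand at one end, and ISR transcription factors (-0.76) and secreted stress factors (-0.73) at the other. The list of ISR transcription factors includes *ATF4*, the target of the siRNA.

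The response after ATF4 depletion was also set against the response after depletion of YAP and TAZ. The 2 responses share no library, and 807 genes (5.97%) had a higher and 589 (4.36%) a lower response in siATF4 than in siY_T cells. For the 1665 genes raised in siCtr cells the median responses were 0.78 in siCtr, 0.36 in siATF4 and 0.47 in siY_T cells. For the 696 lowered genes they were -0.73, -0.23 and -0.58. The first value of each was used to choose the genes, so only the last 2 can be set against each other.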

How the data were processed

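RNA from the 12 HLE libraries was sequenced and aligned to hg19 by the authors, and the deposited table holds CPM, counts per 1000000 reads on RefSeq genes, for 26258 Entrez Gene identifiers. Labels and methods differ on the library kit, the instrument, the dose and the number of replicates, and the labels were followed; the strand setting of the counting is not given in the sources used here. Every CPM value was a whole multiple of 1 read within 0.001, so reads were recovered for count tests. Groups came from the labels.

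Values were taken to log2(CPM + 0.5) for the 13515 genes that reached 1 CPM in 2 libraries or more, and 1 model over all 6 groups was fitted with limma 3.58.1 (moderated with a trend, residual df 6) in R 4.3.3. Genes were called at a Benjamini-Hochberg adjusted p under 0.05, two-sided, and an absolute log2 value of at least 0.58. Classes combine the calls of the difference and of each arm: lost means that the siATF4 response was under 0.58, blunted that it was still called, and only that the siCtr response was under 0.58. Named genes were *ATF4*, *SLC7A11*, *CHAC1* and *ATF3*, the genes of each class with the largest difference at a mean of at least 5 CPM and without overlap between arms (10, 8, 8, 8, 4 and 4, and up to 6 reversed), and up to 4 per list; *PLK3*, *AARS1*, *E2F2*, *GINS2* and other list members were chosen for illustration after their values were seen. The members and lists were chosen with earlier results of these data known. edgeR 4.0.16, DESeq2 1.42.0, other pseudocounts, filters, scalings and left-out libraries were alternatives. In data simulated for this difference limma recovered 152 of 200 genes changed by 0.58 (13214 genes), 186 by 1 (13205 genes) and 196 by 1.5 (13200 genes). Recovered there means an adjusted p under 0.05 with the right sign, without the minimum of 0.58. The mean estimate for a change of 0.58 was 0.55, so fewer genes of this size would meet the rule used for calls. Positions are from GENCODE on GRCh37, and promoters from RefSeq on GRCh38.p14.

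Replicate numbers were not taken as pairs, since the deviations of libraries with the same number correlated between -0.097 and 0.164 over the 6 pairs of groups.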

Additional observations from a re-analysis of the deposited data

Results flagged for a closer look

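The test of the difference between the 2 responses singled out 1659 genes, and the responses of 19 genes were called in opposite directions in the 2 arms. By size the named ones of these were *CEBPB* (difference -2.13), *SESN2* (-1.89), *KDM6B* (-1.83) and *GDF15* (-1.71), raised in siCtr and lowered in siATF4 cells, and *EFHB* (1.77) and *PPME1* (1.58), lowered in siCtr and raised in siATF4 cells. The other genes with opposite responses were *H2AC6*, *CEBPB-AS1*, *CDRT4*, *NATD1*, *STC2*, *DISP2*, *ARSD*, *CACNG8*, *ARRDC1*, *VESTAR* and *POU6F1* with a negative and *TINAGL1* and *SERPINB7* with a positive difference. Many of them lie just past 0.58 in 1 arm, and the number of such genes was 52 with edgeR and 44 with DESeq2. With 2 libraries a group no test for a library that stands apart was made within groups.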

How the results depend on the processing

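Negative differences outnumbered positive ones under each other scaling, pseudocount, filter and count test tried. The quantile split of the differences was 810 negative and 723 positive, 52.8% negative against 64.9%; lost induction then counted 421 and lost lowering 431 genes, and *STC1*, *LIF*, *ERN1*, *NR4A1*, *FOSB* and *MT1F* lost their calls. Induction enhanced counted 13 genes in the report, 26 with a pseudocount of 0.1, 7 with a pseudocount of 1, 25 with edgeR and 25 with DESeq2. At a minimum of 5 CPM there were 710 negative differences, 400 genes of lost induction, 110 lowered only in siATF4 cells and 9 of enhanced lowering; fewer genes were tested there. With a minimum difference of 1 there were 78 positive and 240 negative differences, classes of 106, 25, 6, 29, 1 and 2 in the order of the report, 394 raised and 103 lowered in siCtr, 154 and 94 in siATF4 cells, and 125 and 121 for siATF4 minus siY_T. With the adjusted p alone there were 2608 positive and 2945 negative differences, classes of 2223, 1843, 491, 535, 219 and 133, then 4906 and 3630 in siCtr, 3777 and 3032 in siATF4 cells, and 2517 and 2123 for siATF4 minus siY_T.

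Leaving out each library in turn gave 543 to 626 positive and 971 to 1122 negative differences, and classes of 550 to 624, 294 to 320, 87 to 106, 154 to 182, 10 to 17 and 10 to 14. The arms gave 1630 to 1688 raised and 690 to 733 lowered in siCtr, 734 to 867 and 378 to 430 in siATF4 cells, and 775 to 859 and 517 to 778 for siATF4 minus siY_T; the lone library is then assumed to vary like the other groups. *MT1F* lost its call without any of 6 of the 8 libraries compared, *FOSB* without any of 4, *FASN* without siCtr Sorafenib replicate 1, *ABCC2* without siATF4 DMSO replicate 2 and *MT2A* without siATF4 Sorafenib replicate 1. Of 127 named genes 100 were called, and 86 of these kept the call in every setting except the minimum of 1. *IFIT1* reversed to 0.21 with edgeR and 0.23 with DESeq2. In CPM the differences of *LRRC32* (-2.85), *PPL* (-610.1), *CGNL1* (-5.54), *ETV5* (-2.71) and *CCN2* (-11.5) reversed, as did 19 of the 1659 called ones (1.15%). With the replicate block there were 585 positive and 1070 negative differences, but the libraries share only a number.

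Genes near 0 in 1 arm are limited by depth. The differences of *NUPR1*, *AKR1C3*, *DUSP4*, *BCL2A1*, *MT1F* and *IFIT1* were not called by the count tests.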
